A study of Saccharomyces cerevisiae with 46 samples.

Results

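The genes described here make guanine and pyrimidine nucleotides in the budding yeast *Saccharomyces cerevisiae*, and several of them set their own expression by sensing those nucleotides. They were chosen by name as 9 genes, the IMP dehydrogenase genes *IMD2*, *IMD3* and *IMD4*, the GMP synthetase gene *GUA1*, and *URA1*, *URA2*, *URA3*, *URA4* and *URA8* of the pyrimidine pathway. Of these, 7 had a row in each of 3 tables of normalised RNA-seq counts, which listed 5572 genes for *spt4Δ* and 4835 genes for each depletion, and *URA2* and *URA3* were not analysed here. Total RNA was compared in *spt4Δ* and WT cells, both BY4741 with *RPB3-3xFLAG* and without *SPT4* in the mutant, and in cells from which Spt4 or Spt5 was drawn out of the nucleus by anchor away. All anchor-away strains carried *tor1-1*, a deletion of *FPR1*, *RPL13-2xFKBP12* and *RPB3-3xFLAG*, with *SPT4* (Spt4-AA) or *SPT5* (Spt5-AA) fused to FRB-eGFP. Spt4-AA cells received rapamycin, given as 1 mg/ml dissolved in DMSO, for 140 min, and Spt5-AA cells received it for 180 min. Whether 1 mg/ml was the stock or the concentration in the culture is not clear from the sources used here. The DMSO group was 1 library of each FRB strain after 120 min in DMSO. All cultures grew in YPD at 30°C, each group had 2 libraries, and the strain background carries a *ura3* mutation. The agent and the length of treatment changed together in the depletions, so their parts in a difference from DMSO cannot be told apart, and both depletions are compared with the same DMSO libraries.

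Spt4 and Spt5 form a complex that travels with RNA polymerase II (RNAPII) during elongation. IMP dehydrogenase carries out the first committed step towards GMP. At *IMD2*, RNAPII that starts at upstream G residues makes short transcripts that are ended early by the Nrd1-Nab3-Sen1 pathway, and when GTP is scarce it starts at a downstream A and makes the full mRNA. *URA2* and *URA8* use a related choice of start site that responds to pyrimidine nucleotides. *URA1*, *URA3* and *URA4* are instead activated by Ppr1, a zinc-cluster protein that responds to early intermediates of the pathway.

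Promoter stretches that bear on these modes of regulation are shown first, read from the R64 genome on the coding (plus) strand. The full-length mRNA of *IMD2* is known to begin at an A upstream of the coding start, shown in capitals at the end of the stretch at chrVIII:554261-554290.
IMD2 start: ttacttttcttattattttctatataaccA
Between 300 and 108 bases before the coding starts of *IMD2* and *IMD3*, the only stretch searched, the longest run common to both was 15 bases, in capitals below, at chrVIII:554180-554209 and chrXII:1002317-1002346. It began 209 bases before the coding start of *IMD2* and 233 bases before that of *IMD3*.
IMD2 shared run: tttttctCAGTTTCGTGGGCTTatacattt
IMD3 shared run: tttactcCAGTTTCGTGGGCTTgtgcattt
The core known for Ppr1, a CGG and a CCG with any 6 bases between them, was searched in the 250 bases before each coding start and reads the same on both strands. It was found in 1.05% of 6001 promoters, and among the 9 genes in *URA1* (2 matches), *URA3* (1) and *URA4* (1). The matches of the measured genes lie at chrXI:24994-25023 and chrXI:25025-25054 for *URA1* and at chrXII:963646-963675 for *URA4*, with the CGG and the CCG in capitals.
URA1 repeat 1: tttcttcacCGGgctttgCCGaaggttatt
URA1 repeat 2: cacgatcttCGGcattcgCCGaaaattttt
URA4 repeat 1: ttcatcattCGGagaattCCGatgaatcgg
*URA8* had no such repeat in its window. A TATATAA, in capitals below, stands in the stretch chrX:620489-620518, across the far edge of that window, and so is not among the matches counted.
URA8 TATA: aaaaaaaaaagTATATAAgcagcgtgattg
On either strand, TATATAA, added after the sequences were seen, was in 19.8% of promoters and in those of *IMD2*, *IMD3*, *URA1* and *URA4*. Its only match at *IMD2* lies in the start stretch printed above, close before the A at which the full-length mRNA begins. Where an A follows, TATATAA overlaps the next motif. TATAAA was in 43.4% of promoters and in those of *IMD4*, *GUA1*, *URA1* and *URA2*, and TGACTC, the core of the Gcn4 site, was in 6.25% of promoters and in that of *URA4*.

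In R64, *IMD2* (YHR216W) spans chromosome VIII from 554396 to 555967, *IMD3* (YLR432W) chromosome XII from 1002557 to 1004128, and *IMD4* (YML056C) chromosome XIII from 162194 to 164176 on the minus strand. *IMD4* has 2 coding exons, with the snoRNA gene *SNR54* inside its span, and the other genes have 1 coding exon each. *GUA1* (YMR217W) spans chromosome XIII from 701790 to 703367, *URA1* (YKL216W) chromosome XI from 25215 to 26159, *URA4* (YLR420W) chromosome XII from 963785 to 964879, and *URA8* (YJR103W) chromosome X from 620754 to 622490, all on the plus strand. The *IMD* genes are close copies. The coding sequences of *IMD2* and *IMD3* were identical at 88.9% of aligned bases, those of *IMD2* and *IMD4* at 79.2%, and those of *IMD3* and *IMD4* at 82.1%. Of the 50-base windows of the coding sequence, 66.3% occurred once in the genome for *IMD2*, 83.4% for *IMD3* and 92.8% for *IMD4*, against 100% for the other genes. How reads with more than 1 match were counted is not given in the sources used here, so the split of reads among the *IMD* genes is uncertain. Where the repeated windows recur in the genome was not traced, and *IMD1*, a further *IMD* gene, was not compared. Reads from outside *IMD2*, *IMD3* and *IMD4* may therefore also bear on their counts and shares.

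The libraries held between 798455 and 6814227 reads on listed genes, recovered from the deposited values, and the Spt5-AA libraries were the shallowest. *SPT4* had 0 and 4 reads in *spt4Δ* cells, against 531 and 250 in WT cells, and the deleted *FPR1* had 1 to 17 reads in the anchor-away libraries. In the deposited values, *spt4Δ* replicate 1 stood apart, with a summed signal of 1.25e+07 against 3.76e+06 in *spt4Δ* replicate 2, and the median gene moved by 0.83 on the log2 scale in *spt4Δ*, by -0.28 in Spt4-AA and by -1.84 in Spt5-AA. Each library was therefore rescaled by the median ratio of its genes to the geometric mean of its table, so that all values below (median-scaled counts) read a gene relative to the median gene of its own table. The 2 DMSO libraries carry different median-scaled counts in the 2 tables for this reason. A change shared by most genes is removed by this rescaling and cannot be read from the median-scaled counts. The source of the deposited factors is not given in the sources used here. Whether they follow *S. pombe* cells added to the samples, and so carry such a shared change, was not tested. RNA came from whole cultures, so a change in every cell and a change in part of the cells cannot be told apart.

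Loss of Spt4 was followed by more RNA of *IMD2* and *URA8*, the measured genes with start-site choice, and by no called change of the others. With 54 of 5283 genes called (1.02%, and 0.663% called higher) by limma at an adjusted p under 0.05, 2 of the 7 genes were called, both higher. Over the 7 genes the log2 fold change had a median of 0.52, against 0.00 over all genes tested.

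*IMD2*, which is induced when GTP runs low, had 1467 and 1610 median-scaled counts in *spt4Δ* cells, against 254 and 265 in WT cells. Both mutant libraries lay far above both WT libraries. It was 5.90-fold higher, with a log2 fold change of 2.56 ± 0.22 (standard error, adjusted p = 2.14e-04, limma), which ranked 6 from the highest of 5283 genes. *URA8*, which encodes one of a pair of CTP synthetases, had 1186 and 870 in *spt4Δ* cells, against 404 and 387 in WT cells. It was 2.56-fold higher without overlap of the groups (log2 fold change 1.36 ± 0.24, adjusted p = 0.0219, limma) and ranked 44. The call of *URA8* did not hold without WT replicate 1 (adjusted p = 0.447) or without WT replicate 2 (adjusted p = 0.512), while its log2 fold change stayed at 1.38 and 1.33. On the deposited scale neither gene passed the test, with log2 fold changes of 3.40 for *IMD2* (adjusted p = 0.154) and 2.20 for *URA8* (adjusted p = 0.655).

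The other *IMD* genes had smaller differences. *IMD3* had 587 and 1104 median-scaled counts in *spt4Δ* cells, against 612 and 458 in WT cells. The groups overlapped, because *spt4Δ* replicate 1 fell between the WT libraries and replicate 2 above them (log2 fold change 0.60 ± 0.30, adjusted p = 0.543). *IMD4*, the most abundant of the *IMD* mRNAs, had 6013 and 5742 in *spt4Δ* cells, against 4788 and 3496 in WT cells, and its log2 fold change of 0.52 ± 0.27 did not pass the test although the groups did not overlap (adjusted p = 0.560). *GUA1*, whose product converts XMP to GMP after the IMP dehydrogenase step, had 5981 and 4213 in *spt4Δ* cells, against 4386 and 3627 in WT cells (log2 fold change 0.33 ± 0.28, adjusted p = 0.763).

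The measured genes with the Ppr1 repeat, *URA1* and *URA4*, did not pass the test, and on the deposited scale their log2 fold changes were above 0, at 0.77 and 0.37. *URA1*, which encodes dihydroorotate dehydrogenase, had 15215 and 8993 median-scaled counts in *spt4Δ* cells, against 13239 and 11447 in WT cells. The mutant libraries lay on either side of both WT libraries, and the log2 fold change was -0.07 ± 0.33 (adjusted p = 0.972). *URA4*, which encodes dihydroorotase, had 1078 and 1026 in *spt4Δ* cells, against 1500 and 1410 in WT cells, a log2 fold change of -0.47 ± 0.22 that did not pass the test (adjusted p = 0.517). Without *spt4Δ* replicate 1, 5 of the 7 genes were called (*IMD2*, *URA8*, *IMD3*, *IMD4* and, lower, *URA4*), where 573 genes in all were called instead of 54. Without *spt4Δ* replicate 2, 5 were also called, with *GUA1* in place of *IMD3*, where 1771 genes in all were called, so calls became more frequent over the whole table in both fits.

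**Figure D1:**
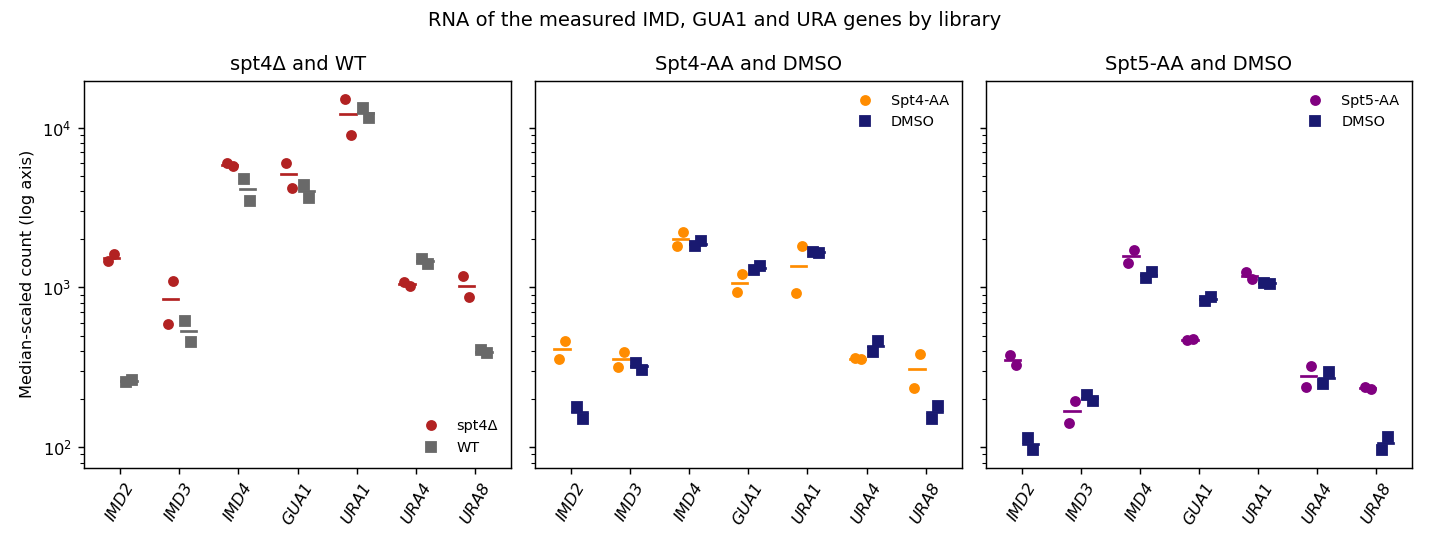
Median-scaled counts (log axis) of the 7 measured genes in each library, with 1 panel per table, circles for *spt4Δ*, Spt4-AA and Spt5-AA, squares for WT and DMSO, and a line at each group mean. *IMD2* and *URA8* lie above their controls in every *spt4Δ*, Spt4-AA and Spt5-AA library. *GUA1* lies above WT on average in *spt4Δ*, where the groups overlap, and below DMSO in both depletions. It was called in Spt5-AA only.

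Depletion of Spt4 was compared with DMSO to ask what changes within hours of losing the protein. *IMD2* was again higher, and it was the only 1 of the 7 genes called, where limma called 421 of 4685 genes (8.99%, and 4.74% called higher). Over the 7 genes the log2 fold change had a median of 0.10, against 0.01 over all genes tested. *IMD2* had 358 and 463 median-scaled counts in Spt4-AA cells, against 179 and 151 in DMSO cells. Both Spt4-AA libraries were above both DMSO libraries, by 2.47-fold (log2 fold change 1.30 ± 0.19, adjusted p = 0.0111, limma). With DMSO replicate 1 or 2 left out the log2 fold change was 1.42 or 1.17 and the adjusted p was 0.0556 or 0.0883.

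*URA8* had 236 and 383 median-scaled counts in Spt4-AA cells, against 151 and 180 in DMSO cells. The groups did not overlap, Spt4-AA replicate 2 was the higher of the pair, and the log2 fold change of 0.86 ± 0.25 had an adjusted p of 0.0712. DESeq2 on the recovered reads called it (log2 fold change 0.90, adjusted p = 0.0269), as did limma after scaling to the same total (log2 fold change 1.00, adjusted p = 0.00828).

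The remaining genes of the guanine branch did not pass the test in Spt4-AA. *IMD3* had 316 and 395 median-scaled counts in Spt4-AA cells, against 336 and 304 in DMSO cells (log2 fold change 0.14 ± 0.17), and *IMD4* had 1815 and 2230 in Spt4-AA cells, against 1806 and 1961 in DMSO cells (0.10 ± 0.17). The groups overlapped for both. *GUA1* had 932 and 1213 in Spt4-AA cells, against 1290 and 1367 in DMSO cells, with no overlap and a log2 fold change of -0.32 ± 0.18 (adjusted p = 0.295). *URA4* had 362 and 354 in Spt4-AA cells, against 392 and 465 in DMSO cells (log2 fold change -0.25 ± 0.16, adjusted p = 0.355). *URA1* had 927 and 1816 in Spt4-AA cells, against 1676 and 1647 in DMSO cells. The first Spt4-AA library lay far below DMSO and the second above it (log2 fold change -0.36 ± 0.29, adjusted p = 0.478). Without Spt4-AA replicate 2, limma called 4 of the 7 genes (*IMD2*, *URA8*, *GUA1* and *URA1*), with *URA1* at -0.85, where 1443 genes in all were called instead of 421.

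Depletion of Spt5 gave the largest number of called genes. Relative to the median gene, *IMD2*, *URA8* and *IMD4* were higher and *GUA1* was lower. These 4 of 7 calls stand beside 2526 of 4673 genes called (54.1%, and 25.9% called higher), so the share of the genes called was close to that of the table. Over the 7 genes the log2 fold change had a median of 0.16, against 0.00 over all genes tested. On the deposited scale, on which the median gene fell by 1.84, the log2 fold change was -0.11 for *IMD2*, -0.70 for *URA8* and -1.48 for *IMD4*. The direction of all 3 thus turned with the scaling. On that scale 6 of the 7 genes were called lower, where 4351 of 4673 genes were called and 2.55% of these calls were higher. A lower call there therefore does not set these genes apart from the table.

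*IMD2* had 378 and 329 median-scaled counts in Spt5-AA cells, against 114 and 96.5 in DMSO cells. The groups were far apart, with a 3.34-fold difference (log2 fold change 1.74 ± 0.15, adjusted p = 2.24e-07, limma), which ranked 214 of 4673. In the deposited normalised counts the same libraries had 188 and 183 in Spt5-AA cells, against 212 and 190 in DMSO cells. *URA8* had 238 and 230 median-scaled counts in Spt5-AA cells, against 95.8 and 115 in DMSO cells. It was 2.22-fold higher (log2 fold change 1.15 ± 0.16, adjusted p = 2.01e-05, limma) and ranked 500.

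A neighbour of *URA8*, chosen here after its values were seen, moved with it in Spt5-AA. *SOD1*, which encodes the copper-zinc superoxide dismutase, lies on the opposite strand with its annotated end 59 bases from that of *URA8*, and its log2 fold change was 1.78 in Spt5-AA (adjusted p = 1.19e-07, limma), 0.14 in *spt4Δ* (adjusted p = 0.913) and 0.25 in Spt4-AA (adjusted p = 0.671). Whether the counting used strand is not given in the sources used here, and the part of *SOD1* reads in the *URA8* value was not tested.

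*IMD4* had 1418 and 1724 median-scaled counts in Spt5-AA cells, against 1147 and 1253 in DMSO cells. The groups did not overlap and the log2 fold change was 0.38 ± 0.14 (adjusted p = 0.0329, limma), a call that was lost without DMSO replicate 1 (adjusted p = 0.336), DMSO replicate 2 (0.156) or Spt5-AA replicate 2 (0.0809). *GUA1* went the other way, with 466 and 472 in Spt5-AA cells, against 819 and 873 in DMSO cells. It was 1.80-fold lower (log2 fold change -0.85 ± 0.13, adjusted p = 5.47e-05, limma), and this direction held under each alternative tried. *IMD3* had 141 and 195 in Spt5-AA cells, against 213 and 194 in DMSO cells (log2 fold change -0.29 ± 0.17, adjusted p = 0.160). *URA1* had 1246 and 1125 in Spt5-AA cells, against 1065 and 1052 in DMSO cells (0.16 ± 0.13, adjusted p = 0.319). *URA4* had 238 and 321 in Spt5-AA cells, against 249 and 297 in DMSO cells, with full overlap of the groups (0.03 ± 0.16, adjusted p = 0.911).

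**Figure D2:**
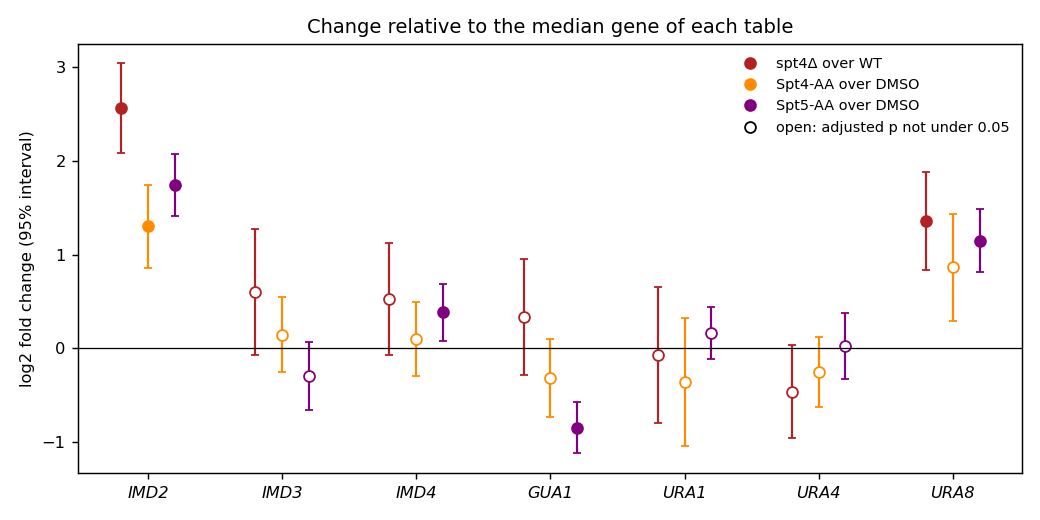
Log2 fold changes of the 7 measured genes relative to the median gene of each table, with 95% intervals from limma, in red for *spt4Δ* over WT, orange for Spt4-AA over DMSO and purple for Spt5-AA over DMSO. Filled points passed an adjusted p of 0.05, as *IMD2* did in all 3 comparisons (2.56, 1.30 and 1.74). The intervals of *URA8* lie above 0 in all 3, whereas the point of *GUA1* is at 0.33, -0.32 and -0.85 and is filled in Spt5-AA only.

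The depletions were compared directly with each other on the recovered reads of their 4 libraries, without the DMSO libraries. Limma called 1351 of 4695 genes (28.8%) and 0 of the 7 genes, and edgeR and DESeq2 also called 0. By limma, 1 of the 7 had an unadjusted p under 0.05, against 1911 of the 4695 genes. The log2 fold change of Spt5-AA over Spt4-AA was 0.45 for *IMD2* (95% interval -0.02 to 0.92, adjusted p = 0.134) and 0.30 for *URA8* (-0.23 to 0.82). The depletions were thus shown neither to differ nor to act alike at these genes. The value was -0.52 for *GUA1* (-0.99 to -0.05, adjusted p = 0.0888), -0.43 for *IMD3*, 0.30 for *IMD4*, 0.53 for *URA1* and 0.29 for *URA4*. Treatment time also differed here, at 180 and 140 min.

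The share of *IMD2* among the reads of the 3 *IMD* genes does not depend on any scaling between libraries. It was 18.2% (95% Wilson interval 17.4 to 19.0) and 19.0% (18.3 to 19.8) in *spt4Δ* cells, against 4.50% (4.03 to 5.02) and 6.27% (5.33 to 7.36) in WT cells. It was 14.4% (13.1 to 15.8) and 15.0% (13.9 to 16.1) in Spt4-AA cells, against 7.71% (6.62 to 8.97) and 6.25% (5.32 to 7.33) in DMSO cells. In Spt5-AA cells it was 19.5% (17.3 to 21.9) and 14.6% (13.2 to 16.2), against the same DMSO libraries. *IMD2* thus took a larger part of the *IMD* reads in each of the 6 *spt4Δ* and depletion libraries than in any of the 4 control libraries. These intervals cover counting error only. *IMD4* gave 74.5% and 67.9% of the *IMD* reads in *spt4Δ* cells, against 84.7% and 82.9% in WT cells. *IMD3* gave 7.29% and 8.67% in Spt5-AA cells, against 14.5% and 12.6% in DMSO cells, but 12.7% and 12.8% in Spt4-AA cells.

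**Figure D3:**
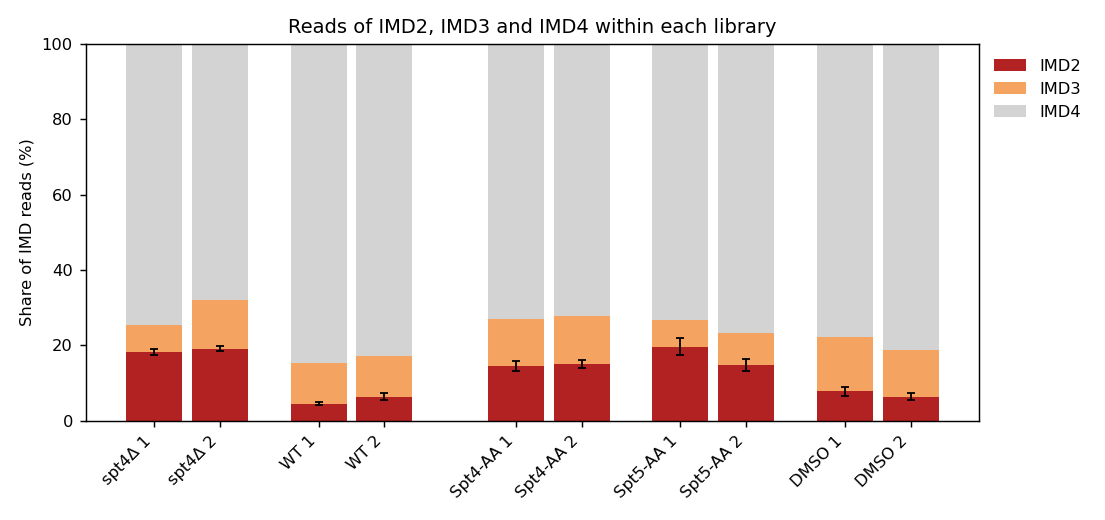
Share (%) of the reads of *IMD2*, *IMD3* and *IMD4* in each of the 10 libraries, stacked to 100%, with 95% Wilson intervals on *IMD2*. The *IMD2* part is 18.2% and 19.0% in *spt4Δ*, against 4.50% and 6.27% in WT, and reaches 14.4% or more in each Spt4-AA and Spt5-AA library, against 7.71% and 6.25% in DMSO.

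Levels between genes were set side by side as reads per kilobase of coding sequence per 1000000 reads on the 4833 genes common to all 3 tables. The full coding length was used, although 66.3% of the 50-base windows of *IMD2* occurred once in the genome, against 100% for *URA8*. The places of the *IMD* genes among the others, here and in the anchor-away strains, are therefore uncertain. *IMD2* averaged 201 ± 49.3 in *spt4Δ* cells and 32.8 ± 0.41 in WT cells (SD, n = 2 each). In WT cells it was the lowest of the 7 genes, below *URA8* at 45.3 and *IMD3* at 67.7, whereas in *spt4Δ* cells it was the fourth highest, and its libraries (166 and 236) enclosed those of *URA4* (175 and 216). Above them in *spt4Δ* cells stood *GUA1* at 645, *IMD4* at 760 and *URA1* at 2530, against 504, 523 and 2595 in WT cells, where the libraries of *IMD4* and *GUA1* overlapped.

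In the anchor-away strains *IMD2* averaged 129 ± 14.1 in Spt4-AA, 172 ± 6.92 in Spt5-AA and 47.5 ± 6.63 in DMSO cells (SD, n = 2 each), and *URA8* averaged 87.3 ± 23.2, 103 ± 3.36 and 43.0 ± 4.52 in the same order of groups. In DMSO cells these 2 genes were the lowest and their libraries overlapped. In Spt5-AA cells both stood above *IMD3* at 82.5, and the libraries of *IMD2* lay inside the range of *URA4*, itself at 197 ± 52.4. *URA1* was the highest gene in every group, at 960 in Spt5-AA, 708 in Spt4-AA and 794 in DMSO cells. Its libraries overlapped with those of *IMD4* in Spt4-AA cells only. *GUA1* averaged 228 ± 15.1 in Spt5-AA, 335 ± 38.0 in Spt4-AA and 380 ± 7.88 in DMSO cells.

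The genes whose changes were most like those of *IMD2* over the 6 *spt4Δ*, Spt4-AA and Spt5-AA libraries, each minus its control mean, were found by Euclidean distance among 3433 genes. They were *CAR1*, which encodes arginase, at a distance of 1.50, *YBR012C* at 1.67 and *PYK2*, which encodes a second form of pyruvate kinase, at 1.90. *URA8* ranked 6 at 2.06, while the median gene was at 4.95. For *URA8* the nearest were *PDL32* at 0.62, *SIS1*, which encodes an Hsp40 co-chaperone, at 0.66 and *YIL108W* at 0.81, with the median gene at 3.12 and *IMD2* at rank 425. These distances are descriptions over libraries that share controls.

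The other listed genes of the guanine branch, in salvage, breakdown and phosphorylation of purines, did not move as a block. In *spt4Δ*, 0 of 8 were called by limma, edgeR or DESeq2. Limma called 1.02% of all genes tested there, so 0 does not set so short a list apart. An unadjusted p under 0.05 by limma was found for 3 of the 8, against 563 of 5283 genes in all. The median log2 fold change was 0.12. In Spt4-AA 3 of 8 were called, against 8.99% of all genes tested. *YNK1*, the nucleoside diphosphate kinase, had 664 and 813 median-scaled counts in Spt4-AA cells, against 337 and 320 in DMSO cells (log2 fold change 1.16, adjusted p = 0.0104, limma), a call that was lost without DMSO replicate 1 (adjusted p = 0.116) or 2 (0.125). *HPT1*, the hypoxanthine-guanine phosphoribosyltransferase of salvage, was lower by 1.63 on the log2 scale, with 396 and 430 in Spt4-AA cells, against 1289 and 1272 in DMSO cells. *AAH1*, adenine deaminase, was also lower, with 272 and 341 in Spt4-AA cells, against 759 and 845 in DMSO cells (log2 fold change -1.39), with an adjusted p of 0.05004 and no call without DMSO replicate 2.

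In Spt5-AA, 7 of the 8 were called, 4 higher and 3 lower, where 54.1% of all genes tested were called. The same 3 genes had the largest changes. *YNK1* had 2114 and 2265 median-scaled counts in Spt5-AA cells, against 214 and 205 in DMSO cells (log2 fold change 3.38), *HPT1* had 97.0 and 113, against 819 and 812 in DMSO cells (-2.95), and *AAH1* had 133 and 117, against 482 and 540 in DMSO cells (-2.03). In *spt4Δ* their log2 fold changes were 0.68 for *YNK1*, -0.73 for *HPT1* and -0.56 for *AAH1*, and none of them passed the test there (adjusted p = 0.295, 0.450 and 0.463).

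Of the other genes for synthesis, salvage and uptake of pyrimidines, 0 of 12 were called in *spt4Δ* and 0 of 10 in Spt4-AA by limma, edgeR or DESeq2. Limma called 1.02% of all genes tested in *spt4Δ* and 8.99% in Spt4-AA. In each comparison 1 gene of the list had an unadjusted p under 0.05. Over all genes tested, 563 of 5283 did in *spt4Δ* and 1296 of 4685 in Spt4-AA. In Spt5-AA 8 of 10 were called, 7 lower and 1 higher, beside 54.1% of all genes tested, and the median log2 fold change was -0.85, against 0.00 over all genes tested. *FCY2*, the purine-cytosine permease, had 354 and 334 median-scaled counts in Spt5-AA cells, against 854 and 816 in DMSO cells (log2 fold change -1.28). *FUI1*, the uridine permease, had 68.1 and 67.1 in Spt5-AA cells, against 151 and 152 in DMSO cells (-1.15). *CDD1*, cytidine deaminase, was the 1 higher gene, with 52.8 and 42.9 in Spt5-AA cells, against 17.1 and 22.1 in DMSO cells (1.25).

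Among factors of start-site choice and early termination, 0 of 13 genes were called in *spt4Δ* by limma, edgeR or DESeq2. Limma called 1.02% of all genes tested there, so 0 does not set this short list apart. Of the 13, 0 had an unadjusted p under 0.05, against 563 of 5283 genes in all. In Spt4-AA 1 of 12 was called, a share near the 8.99% of all genes tested. This was *SUB1*, a coactivator that binds TFIIB, with 303 and 263 median-scaled counts in Spt4-AA cells, against 152 and 165 in DMSO cells (log2 fold change 0.83, adjusted p = 0.0278, limma). The call was lost on the deposited scale (adjusted p = 0.0607) and without DMSO replicate 1 (0.290) or 2 (0.223). In Spt5-AA 8 of 12 were called, beside 54.1% of all genes tested. *RPB9*, an RNAPII subunit that affects where transcription starts, had 121 and 122 in Spt5-AA cells, against 298 and 323 in DMSO cells (log2 fold change -1.35). *PAP2*, the poly(A) polymerase of the TRAMP complex, was lower (-1.30). *NRD1*, an RNA-binding factor of early termination, was higher relative to the median gene at 1.23, with 148 and 85.9 in Spt5-AA cells, against 43.1 and 52.4 in DMSO cells, but its log2 fold change was -0.61 on the deposited scale, where that of *CDD1* was -0.55.

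**Figure D4:**
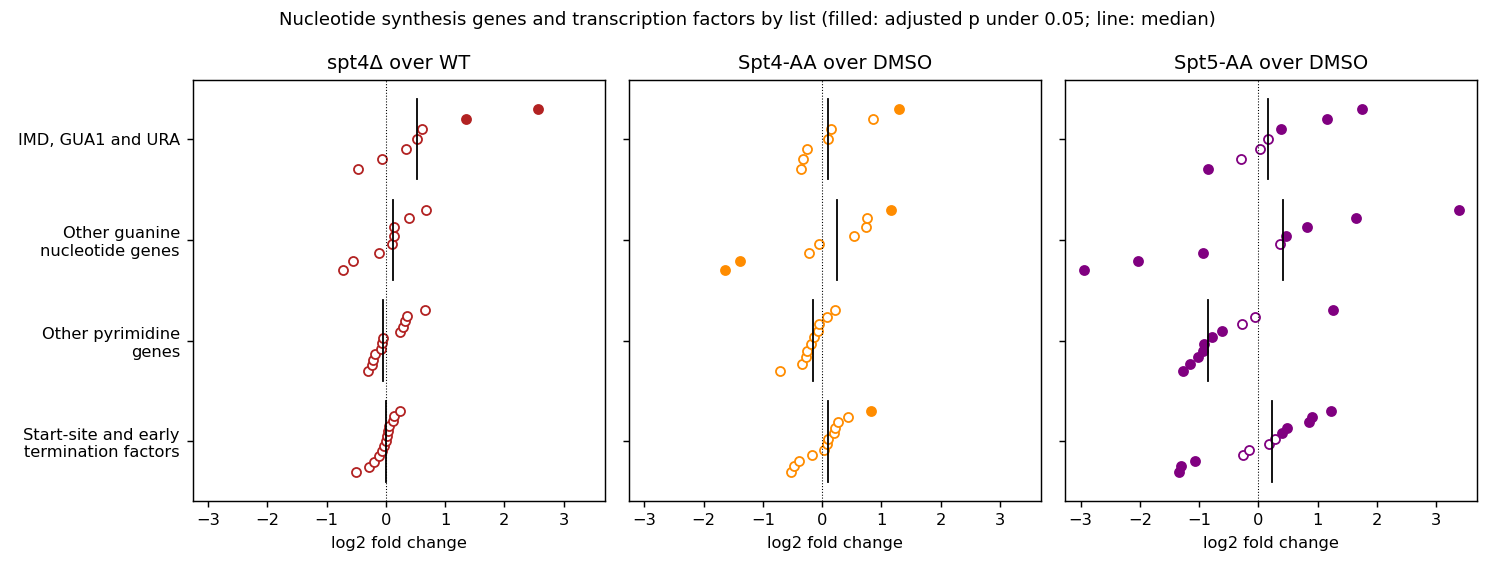
Log2 fold change of each listed gene relative to the median gene of its table, in 3 panels for *spt4Δ* over WT, Spt4-AA over DMSO and Spt5-AA over DMSO, with filled circles for an adjusted p under 0.05 and a black line at the median of each list. In *spt4Δ*, where 1.02% of all genes were called, the only filled circles are *IMD2* and *URA8*. In Spt5-AA 27 of the 37 tested genes are filled, beside 54.1% of all genes called, and the median of the other pyrimidine genes is -0.85.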

How the data were processed

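Of 46 samples, the 10 RNA-seq libraries were used. Per the submitters' processing notes, Trim Galore, TopHat and DESeq2 were used with the builds sacCer3, R64 and ASM294v2, the last of the added *S. pombe* cells. The counter, its annotation and the source of the size factors are not given in the sources used here. The authors deposited 3 tables of normalised counts, a signal in which the reads per gene were divided by 1 factor per library. Their tables of means, log2 fold changes, errors, scores and p-values were not used. Whole reads were recovered for 100% of values within a relative tolerance of 0.001.

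Values were rescaled by the median ratio and tested as log2(value + 1), which understates changes of low genes, with limma 3.58.1 (R 4.3.3), an intensity trend and two-sided Benjamini-Hochberg adjustment over all genes with a mean of at least 10 deposited normalised counts (reads for Spt5-AA against Spt4-AA). Groups came from the labels. Libraries of the same strain and treatment are not stated to be separate cultures. The p-values measure the spread between these libraries, which may be technical within such a pair. The DMSO group is 1 library of each FRB strain, so its spread can also hold a difference between the strains. In each comparison of a depletion with DMSO, 1 DMSO library is of the other FRB strain. On the recovered reads, edgeR 4.0.16 (quasi-likelihood) called 46 genes in *spt4Δ*, 459 in Spt4-AA, 2621 in Spt5-AA and 1306 between the depletions, and DESeq2 1.42.0 was also run. Other alternatives were the deposited scale, scaling to the same total, pseudocounts of 0.1 and 10, no filter, a mean of at least 100, the replicate number as a block, and each library left out. With 1 library left in a group, it is assumed to vary like the others. Python 3.11.15, pandas 2.3.3 and Biopython 1.88 were used otherwise.

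The 9 genes and the lists were chosen with earlier results of these data known. Of the other listed genes, at most the 3 with the largest change among those called were named per list and comparison, and for *IMD2* and *URA8* the 3 nearest genes. *IMD1*, *URA7*, *PPR1* and *SEN1* were not analysed here, nor were *URA10*, *URH1* and *SSL2* in the depletions. Promoter letters, coordinates and identities came from R64, and intervals cover counting error only, since no molecular identifiers were used here.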

Additional observations from a re-analysis of the deposited data

Results flagged for a closer look

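For *GUA1* and *IMD3*, every *spt4Δ* library was above its control mean. Every library of both depletions was below it for *GUA1*. For *IMD3* this held in Spt5-AA only, since its Spt4-AA libraries lay at -0.014 and 0.30 from the DMSO mean on the log2 scale. *IMD3* passed the test in neither *spt4Δ* nor Spt5-AA, and *GUA1* passed it in Spt5-AA only. For *GUA1* the log2 fold change in *spt4Δ* exceeded that in Spt4-AA by 0.65 and that in Spt5-AA by 1.18, and for *IMD3* that in *spt4Δ* exceeded that in Spt5-AA by 0.90. These differences were not tested.

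Between the depletions, where limma called 28.8% of all genes tested, it called 9 named genes of the other lists different (log2 fold change of Spt5-AA over Spt4-AA). It was 2.23 for *YNK1*, -1.31 for *HPT1* and 0.91 for *GUD1*, which encodes guanine deaminase. It was -1.13 for *FCY2*, -1.09 for *URA5*, which encodes an orotate phosphoribosyltransferase, and 1.06 for *CDD1*. It was 1.14 for *NRD1*, -0.95 for *RPB9* and 0.77 for *NAB3*, the partner of *NRD1*. Without Spt5-AA replicate 1, limma no longer called *CDD1* (adjusted p = 0.136), *NAB3* (0.125), *NRD1* (0.111) or *URA5* (0.0645), and without Spt5-AA replicate 2 it no longer called *GUD1* (0.161) or *NAB3* (0.0736). *CDD1* was also lost by DESeq2 (adjusted p = 0.0653) and without Spt4-AA replicate 2 (0.0649).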

How the results depend on the processing

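Under each alternative, *IMD2*, *URA8*, *GUA1* and *URA4* kept their directions in Spt4-AA, and *GUA1* and *IMD3* did in Spt5-AA. In *spt4Δ* all measured genes but *URA1* and *URA4* did. In *spt4Δ*, 0 of the 7 genes were called on the deposited scale and 1 to 5 with a library left out. In Spt4-AA, 2 were called with the same total or DESeq2 and 0 to 4 with a library left out, and between the depletions 1 with the same total and 0 to 3 with a library left out. Signs turned on the deposited scale for *URA1* (0.77) and *URA4* (0.37) in *spt4Δ*, *IMD3* (-0.15) and *IMD4* (-0.20) in Spt4-AA, and *IMD2* (-0.11), *URA8* (-0.70), *IMD4* (-1.48), *URA1* (-1.70), *URA4* (-1.83), *CDD1* (-0.55) and *NRD1* (-0.61) in Spt5-AA. With a library left out, signs turned for *URA1* in *spt4Δ* (-0.43 to 0.29), for *IMD3* (-0.024 to 0.30), *IMD4* (-0.062 to 0.24) and *URA1* (-0.85 to 0.13) in Spt4-AA, for *URA4* in Spt5-AA (-0.20 to 0.24) and for *URA8* between the depletions (-0.029 to 0.61). The cause was not tested. Over all genes, the main fit called 54 genes in *spt4Δ* (64.8% higher), against 13 on the deposited scale (92.3% higher), 14 with the same total (85.7% higher), 108 by DESeq2 and 16 to 1771 with a library left out. It called 421 in Spt4-AA (52.7% higher), against 1022 (13.9% higher) on the deposited scale, 671 (72.9% higher) with the same total and 57 to 1648 with a library left out. It called 2526 in Spt5-AA (47.9% higher), against 4351 (2.55% higher) on the deposited scale, and 35.1% of calls were higher with a mean of at least 100. Between the depletions 781 to 1625 were called with a library left out, against 1351. Replicate numbers did not pair the libraries (correlation of deviations -0.26 over 2 pairs in *spt4Δ* and WT, 0.08 between the depletions). With the number as a block, 2 of the 7 genes and 91 genes in all were called in *spt4Δ*, and 0 of the 7 and 1548 in all between the depletions. With the numbers crossed, chosen after seeing the data, 266 genes were called in *spt4Δ*.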

Other observations

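Genes beside the 9 loci, chosen by position, were read for their log2 fold changes. In Spt5-AA over DMSO limma called 54.1% of all genes tested, so a call there does not set a neighbour apart. Of those beside *URA3*, *TIM9* had -0.57 (adjusted p = 0.00647) and *GEA2* -0.44 (adjusted p = 0.0244) in Spt5-AA over DMSO by limma. In the same comparison *SPC2*, beside *IMD4*, had 0.84 (adjusted p = 0.00341) and *VPS25*, upstream of *URA8*, had 0.84 (adjusted p = 0.0439). The neighbours of *IMD3* and *GUA1* that were tested did not pass the test in any of the 3 comparisons. Nor did *AIM23* and *TRK1* beside *URA2*, *OXP1* beside *URA1* or *RPN13* beside *URA4*. The neighbours of *IMD2* were not analysed here.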
